A study of Mus musculus with 12 samples.

Results

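Caspases, gasdermins and the kinase RIPK3 with its substrate MLKL carry out the regulated forms of cell death, and 8 of their genes were followed here in epithelial cells of the small intestine after experimental stroke. The 8 genes were chosen by name (Casp1, Casp6, Casp8, Gsdmd, Gsdmc2, Gsdmc4, Mlkl and Ripk3), and all 8 had a row among the 15855 genes of the count table. Live EpCAM+ cells were sorted from the whole small intestine of C57BL6/J mice, with cells that took up a dead-cell dye left out. They were collected 24 h after sham surgery (n = 7) or permanent middle cerebral artery occlusion (pMCAO, n = 5). pMCAO is a stroke model in which a large cerebral artery stays closed, and total RNA of the sorted cells was sequenced. By 24 h the study no longer saw stroke-induced cell death in the ileum. The labels name no engineered allele, age or sex, and the study's methods name male mice unless stated otherwise. The labels number every sample as a separate biological replicate.

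Several routes of death meet in these genes. Apoptosis is started by caspase-8 at death receptors or by mitochondria, and is executed by effector caspases, among them caspase-6. Pyroptosis follows when inflammasomes activate caspase-1, which cleaves gasdermin D so that its N-terminal part forms pores in the plasma membrane, and necroptosis follows when RIPK3 phosphorylates MLKL, a step that caspase-8 restrains. In the gut these routes remove infected or worn cells from the surface of the villus, and Gsdmc genes of the mouse are expressed mainly in intestinal epithelium. All these proteins are switched by cleavage or phosphorylation, which RNA levels do not report.

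The libraries fell into blocks of consecutive library numbers in the sample titles. Block 1 (libraries 58 to 61) held 3 sham samples and 1 pMCAO sample, block 2 (62 to 65) held 2 of each, block 3 (66 to 68) held 1 sham and 2 pMCAO samples, and block 4 (library 72) held a single sham sample. These split points came from an earlier analysis of the same data, which had set them against the authors' deposited fold changes, and the labels do not say what separates them. Total counts ranged from 7418730 to 31925579 per library. In block 1, 13386 to 14712 genes were detected and mitochondrial ribosomal RNA took 34.8% to 54.5% of the counts, against 15343 to 15766 genes and 14.6% to 35.2% in the 8 later libraries. The limma-voom comparisons of the tested genes among the 8 are therefore given for the group alone and with the library blocks as a covariate. Epithelial markers were high in every library (Epcam, 884 to 2529 CPM, library-size-scaled counts with TMM factors). The summed lymphocyte markers reached 51.6 to 813 CPM in sham and 80.3 to 622 CPM in pMCAO samples. Summed goblet markers were 3220 to 5801 CPM in block 1 and 15900 to 39760 CPM in the later libraries. Enteroendocrine sums were 141 to 231 and 990 to 1917 CPM, and tuft sums 16.2 to 43.3 and 149 to 693 CPM. Epithelial sums went the other way, with 9828 to 12170 CPM in block 1 and 5307 to 8623 CPM later. The sums of the other marker lists overlapped between block 1 and the later libraries.

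No gene of the 8 was called different between pMCAO and sham mice. A call by limma-voom needed an adjusted p no higher than 0.05 (Benjamini-Hochberg, over the 14462 genes tested) and a log2 fold change no smaller than 1 in either direction. For the group alone 0 genes were called in all (0.00%), with 1219 genes (8.43%) at an unadjusted p under 0.05, and with library blocks 47 genes were called (0.325%), with 1843 (12.7%) at an unadjusted p under 0.05. Without blocks edgeR called 0 genes and DESeq2 68, and neither tool called any of the genes it tested here. Gsdmc2 and Gsdmc4 were too low to enter this test, which left 6 of the 8. Of these 6, Casp1 and Casp6 had an unadjusted p under 0.05, both higher in pMCAO samples, where the same held for 674 genes (4.66%) of all tested. None of the 6 had an unadjusted p under 0.05 with pMCAO lower (3.77% of all genes), and none had groups that did not overlap over the 12 libraries (0.512% of all genes).

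**Figure D1:**
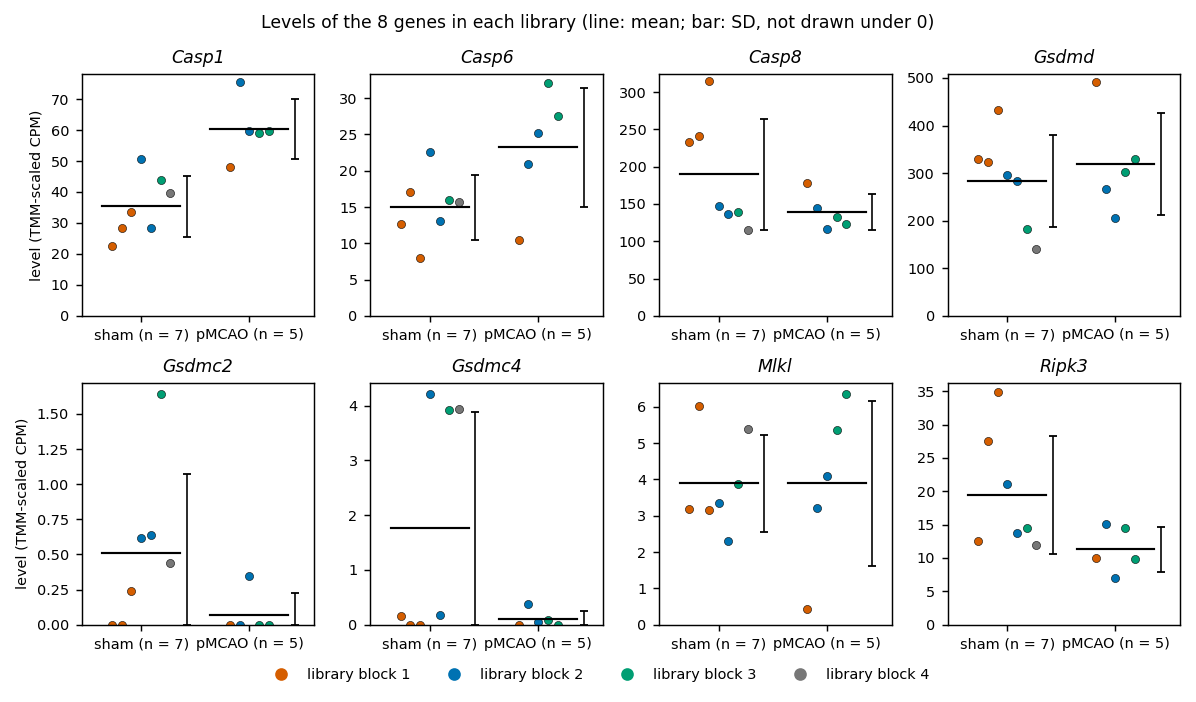
Level of each of the 8 genes (TMM-scaled CPM, vertical axis from 0) in the 7 sham and 5 pMCAO libraries, with points coloured by block of library numbers, a line at the mean and a bar of 1 SD. Casp1 is the gene whose groups are nearest to separation, while Gsdmc2 and Gsdmc4 lie near 0 in most libraries.

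Ordered by level per kilobase of exon, so that genes of different length can be compared, the 8 genes spanned a wide range. Length was the union of all annotated exons of a gene, which can exceed that of any single transcript. The levels and their order hold for this length only. Gsdmd, which encodes the pore-forming substrate of caspase-1, stood first with 126 CPM per kilobase ± 41.3 (SD, n = 12). Casp8, the initiator caspase of death receptors, followed with 58.2 ± 21.6 (SD, n = 12), and Casp1, the inflammasome caspase, with 30.6 ± 10.7 (SD, n = 12). The order of Gsdmd over Casp8 held in 12 of 12 libraries and that of Casp8 over Casp1 in 11.

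Ripk3 (7.00 ± 3.51 CPM per kilobase, SD, n = 12), Casp6 (3.30 ± 1.31, SD, n = 12) and Mlkl (1.69 ± 0.734, SD, n = 12) were lower. Ripk3 was above Casp6 in 10 of 12 libraries with a mean log2 difference of 1.06 and an SD of 1.02, the fewest libraries of any neighbouring pair among the 6 genes down to Mlkl. The exon union of Casp6 is 5584 bases and its longest coding transcript 1456, against 2292 and 1964 for Ripk3. The order of Ripk3 and Casp6 therefore depends on the length used. Casp6 was above Mlkl in 12 of 12 libraries. At the foot of the order stood Gsdmc4 (0.515 ± 0.854, SD, n = 12) and Gsdmc2 (0.141 ± 0.208, SD, n = 12), whose log2 difference of 0.68 was smaller than its SD of 1.61 over the libraries.

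Among the other caspases reported here, Casp4, the sensor caspase for intracellular lipopolysaccharide, reached 11.5 CPM per kilobase ± 4.67 (SD, n = 12) and Casp2 stood at 3.97 ± 1.27 (SD, n = 12), near Casp6. Casp9, the mitochondrial initiator, was lowest of the 6 caspases reported with 1.31 ± 0.598 (SD, n = 12), and its exons overlap Cela2a and Ctrc on the opposite strand. Of the other gasdermins, Gsdme stood at 5.15 ± 1.63, Gsdma at 3.49 ± 2.15 and Gsdma2 at 0.103 ± 0.147 CPM per kilobase (SD, n = 12 each).

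**Figure D2:**
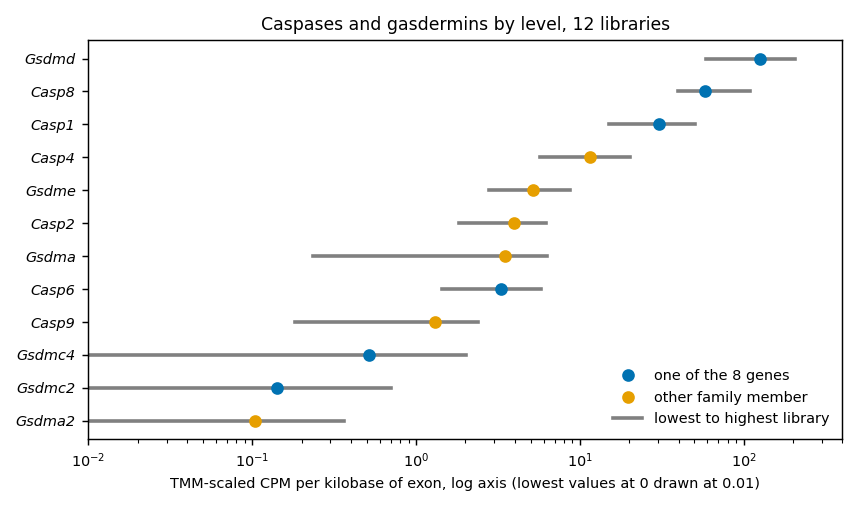
Caspases and gasdermins reported here, ordered by mean level over the 12 libraries (horizontal axis: TMM-scaled CPM per kilobase of exon, log scale), with the range from the lowest to the highest library. Gsdmd, Casp8 and Casp1 lead the order, and Gsdmc4, Gsdmc2 and Gsdma2 reach 0 in at least 1 library.

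Casp1 (ENSMUSG00000025888; GRCm38 chromosome 9, 5298517 to 5307265, plus strand) showed the smallest unadjusted p of the 6 genes tested. It measured 22.7, 28.4, 33.4, 50.7, 28.4, 44.0 and 39.8 CPM in sham samples 1 to 7, and 48.0, 75.5, 59.7, 59.1 and 59.7 CPM in pMCAO samples 1 to 5. Of the 5 pMCAO values, 4 lay above every sham value, and the other, from block 1, lay above all sham samples but one. The sham mean was 35.3 ± 9.93 CPM and the pMCAO mean 60.4 ± 9.78 CPM (± SD, n = 7 and n = 5).

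The limma-voom log2 fold change of Casp1 was 0.80 (SE 0.21, 95% interval 0.35 to 1.24), a ratio of 1.74 (unadjusted p 0.00153, adjusted p 0.308). With library blocks in limma-voom it was 0.74 (SE 0.18, unadjusted p 0.000898, adjusted p 0.0887). Within blocks 1, 2 and 3 the log2 difference of the group means was 0.79, 0.82 and 0.43, positive in each. In the 8 later libraries the groups did not overlap, with 28.4 to 50.7 CPM in 4 sham and 59.1 to 75.5 CPM in 4 pMCAO samples, as was so for 269 genes (1.86%) of all tested with pMCAO higher. The unadjusted p was below 0.05 under each of the 23 alternatives, from 0.000823 to 0.00683, while the limma-voom, edgeR or DESeq2 adjusted p ranged from 0.0448 to 0.616.

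The summed myeloid markers, of cells that also express Casp1, were 14.7 to 77.4 CPM in sham and 18.4 to 41.1 CPM in pMCAO samples. None of the 7 tested myeloid markers had an unadjusted p under 0.05 by limma-voom in either fit. Of 13 tested lymphocyte markers, 0 had one for the group alone (8.43% of all genes) and 7 with library blocks (12.7% of all genes). Each of the 7 was higher in pMCAO samples (Cd8a, Nkg7, Cd7, Itgae, Cd3g, Gzma and Ccl5), as 6.58% of all genes were. The median log2 fold change of the 13 was 0.66 for the group alone and 0.88 with library blocks. On simulated data the fit with library blocks made more false calls than its threshold allows. Of 6 enterocyte markers, Sis (sucrase-isomaltase), Fabp1 and Fabp2 had an unadjusted p under 0.05 for the group alone (8.43% of all genes). Their limma-voom log2 fold changes were 1.14, 1.00 and 0.92, while Alpi, Apoa1 and Apoa4 stood at 0.22, 0.11 and -0.15. With library blocks Sis was at 0.74 and Fabp2 at 0.86, both still under an unadjusted 0.05 by limma-voom (12.7% of all genes), and Fabp1 was not. Of 6 goblet markers, 0 were under it for the group alone and 3 with library blocks (Clca1, Fcgbp and Tff3), each higher in pMCAO samples. Of 4 tested tuft markers, 1 was under it with library blocks (Pou2f3, lower). The epithelial, Paneth, enteroendocrine, stem, B cell and stromal lists had none in either fit. The part of these cell types in the Casp1 values was not tested. Less or more RNA per cell cannot be told apart from a different share of cells of a type in such sorted bulk samples.

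The 250 bases before the RefSeq start of Casp1 (GRCm38.p6, chr9:5298267-5298516, plus strand) are shown because Casp1 was the gene with the smallest p, with capitals marking the E-box letters CACGTG.
Casp1: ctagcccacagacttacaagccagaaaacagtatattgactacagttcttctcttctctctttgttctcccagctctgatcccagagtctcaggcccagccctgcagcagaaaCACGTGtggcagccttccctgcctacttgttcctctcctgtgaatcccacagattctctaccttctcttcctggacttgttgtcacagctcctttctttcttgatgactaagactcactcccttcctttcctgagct

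Promoters in the RefSeq table matched 5 of the 8 genes (Casp1, Casp6, Casp8, Mlkl and Ripk3). Both strands of the 250 bases were searched for the E-box letters CACGTG, the GC box letters GGGCGG, the core promoter letters TATAAA and the STAT-binding letters TTCNNNGAA. CACGTG stood in the windows of Casp1 and Ripk3 and in 6.02% of 32851 promoters of the same length. GGGCGG stood in the windows of Casp6 and Ripk3 and in 32.7% of all, and TATAAA (12.4% of all) and TTCNNNGAA (7.02% of all) in none of the 5.

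Casp6 (ENSMUSG00000027997; chromosome 3, 129901425 to 129914103, plus strand), an executioner caspase that also acts in inflammasome signalling, measured 12.7, 17.0, 7.99, 22.5, 13.02, 15.9 and 15.7 CPM in sham samples 1 to 7. The pMCAO samples 1 to 5 measured 10.5, 20.9, 25.1, 32.1 and 27.5 CPM. The groups overlapped, with 3 of 5 pMCAO values above the highest sham value and the block 1 pMCAO sample among the lowest of all. The limma-voom log2 fold change was 0.59 (SE 0.27, unadjusted p 0.0433, adjusted p 0.583), and 0.55 with library blocks (SE 0.22, unadjusted p 0.0244, adjusted p 0.311). Its sign differed between blocks, with log2 differences of -0.19, 0.42 and 0.90 within blocks 1, 2 and 3. The unadjusted p was under 0.05 in 11 of 23 alternatives, and with library blocks in edgeR and DESeq2 the log2 fold changes were 0.35 and 0.34.

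Casp8 (ENSMUSG00000026029; chromosome 1, 58795374 to 58847503, plus strand) differed more between library blocks than between the groups. In sham samples it ranged from 114 to 314 CPM with a median of 148 CPM, and in pMCAO samples 1 to 5 it was 178, 144, 117, 132 and 123 CPM. Block 1 held the 4 highest values (178 to 314 CPM), and the 8 later libraries lay between 114 and 148 CPM in both groups. By limma-voom the groups differed by -0.38 on the log2 scale (SE 0.25, adjusted p 0.677), or by -0.25 with library blocks (SE 0.14, adjusted p 0.482). Without sham sample 3 the value was -0.23, and without library block 1 it was -0.05. Of the 100-base windows of its longest coding transcript, 0.845% also occur in Gm20257.

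Gsdmd (ENSMUSG00000022575; chromosome 15, 75862327 to 75867408, plus strand) ranged from 139 to 432 CPM in sham samples with a median of 296 CPM. In pMCAO samples 1 to 5 it measured 491, 267, 206, 303 and 329 CPM, so that the groups overlapped. The 4 libraries of block 1 lay between 322 and 491 CPM and the later 8 between 139 and 329 CPM. The limma-voom log2 fold change was 0.20 (SE 0.28, 95% interval -0.39 to 0.80, adjusted p 0.859), and 0.25 with library blocks (SE 0.17, adjusted p 0.596). Within blocks 1, 2 and 3 the log2 differences were 0.46, -0.30 and 0.80. The group-alone value moved with single libraries, to 0.05, 0.04 and 0.12 without sham sample 7, pMCAO sample 1 and sham sample 6, and to 0.33 and 0.34 without sham sample 3 and pMCAO sample 3.

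**Figure D3:**
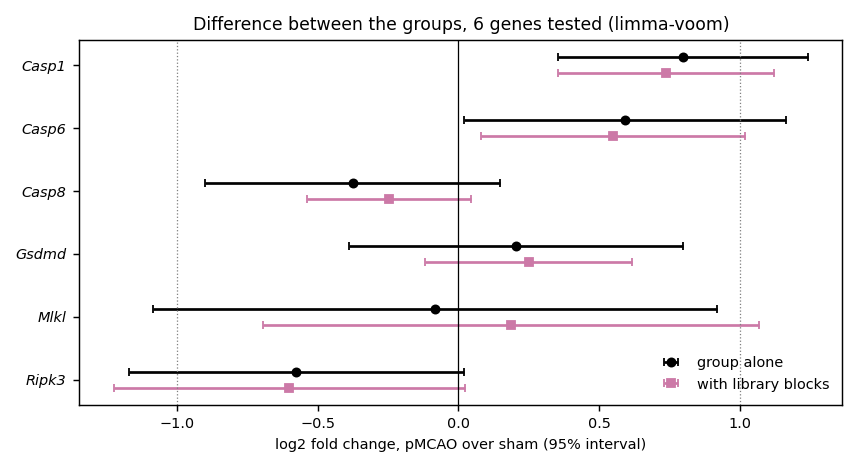
Log2 fold change of pMCAO over sham with its 95% interval for the 6 genes tested, from limma-voom with the group alone and with library blocks, with dotted lines at the size needed for a call. The intervals of Casp1 and Casp6 lie above 0 in both fits, and those of the other 4 genes include 0.

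Ripk3 (ENSMUSG00000022221; chromosome 14, 55784995 to 55788865, minus strand) ranged from 11.9 to 34.9 CPM in sham samples with a median of 14.5 CPM. In pMCAO samples 1 to 5 it measured 9.98, 15.0, 6.97, 14.5 and 9.90 CPM, and 3 of the 5 lay below the lowest sham value. Its limma-voom log2 fold change was -0.58 (SE 0.28, 95% interval -1.17 to 0.02, unadjusted p 0.0565, adjusted p 0.602). With library blocks it was -0.60 (SE 0.29, unadjusted p 0.0575, adjusted p 0.411), and the difference was negative within blocks 1, 2 and 3 (-1.19, -0.73 and -0.27). The unadjusted p fell under 0.05 in 10 of 23 alternatives, and without pMCAO sample 3 the value was -0.37.

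Mlkl (ENSMUSG00000012519; chromosome 8, 111311797 to 111338177, minus strand), which encodes the pore-forming effector of necroptosis, was the lowest of the 6 genes tested. Sham samples ranged from 2.32 to 6.02 CPM with a median of 3.34 CPM, and pMCAO samples 1 to 5 measured 0.426, 3.20, 4.09, 5.37 and 6.36 CPM. The groups overlapped, and the lowest value, from pMCAO sample 1, rested on 5 counts. By limma-voom the difference was -0.08 on the log2 scale (SE 0.47, adjusted p 0.971), or 0.19 with library blocks (SE 0.42, adjusted p 0.898), so its direction turned.

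Gsdmc2 and Gsdmc4 are neighbours on chromosome 15 (minus strand; ENSMUSG00000056293, 63824346 to 63845177, and ENSMUSG00000055748, 63891264 to 63912297). Their coding sequences are 93.7% identical, and of their 100-base windows 28.6% (Gsdmc2) and 20.2% (Gsdmc4) occur in another gene of the family, so reads could be divided between copies. Gsdmc, Gsdmc3 and Gsdma3 were not analysed here. The stretch of 120 coding bases below shows where the copies can be told apart, with capitals marking the 23 positions at which the bases differ (Gsdmc2 coding bases 753 to 872, Gsdmc4 759 to 878, GENCODE vM21, reading strand of the gene).
Gsdmc2: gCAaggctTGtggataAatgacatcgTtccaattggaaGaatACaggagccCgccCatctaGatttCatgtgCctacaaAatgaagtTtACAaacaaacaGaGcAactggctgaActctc
Gsdmc4: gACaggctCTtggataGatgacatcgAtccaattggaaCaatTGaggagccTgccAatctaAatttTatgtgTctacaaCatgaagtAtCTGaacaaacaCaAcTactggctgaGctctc

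Gsdmc2 had 0, 0, 1, 5, 11, 64 and 6 counts in sham samples 1 to 7, and 0, 0, 15, 0 and 0 counts in pMCAO samples 1 to 5. Scaled for library size this was 0.511 ± 0.563 CPM against 0.0693 ± 0.155 CPM (± SD, n = 7 and n = 5). Block 1 libraries held 1 count in all, and in the 8 later libraries the sham samples (0.438 to 1.64 CPM) did not overlap the pMCAO samples (0 to 0.346 CPM), as was so with pMCAO lower for 238 genes (1.65%) of all tested. The exact two-sided permutation test over the 12 libraries gave p = 0.105, and with permutation within library blocks p = 0.0694.

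Gsdmc4 had 2, 0, 0, 34, 3, 153 and 54 counts in sham samples 1 to 7, and 0, 16, 2, 1 and 0 counts in pMCAO samples 1 to 5. The mean levels were 1.77 ± 2.11 CPM and 0.1001 ± 0.157 CPM (± SD, n = 7 and n = 5), and sham samples 4, 6 and 7 held most of the counts. The exact two-sided permutation test gave p = 0.135, and p = 0.0972 within library blocks. In limma-voom without the filter on low counts, the fitted log2 fold changes were -3.28 (SE 1.19, adjusted p 0.510) for Gsdmc2 and -3.47 (SE 1.35, adjusted p 0.542) for Gsdmc4, and with library blocks the adjusted p values were 0.155 and 0.204.

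**Figure D4:**
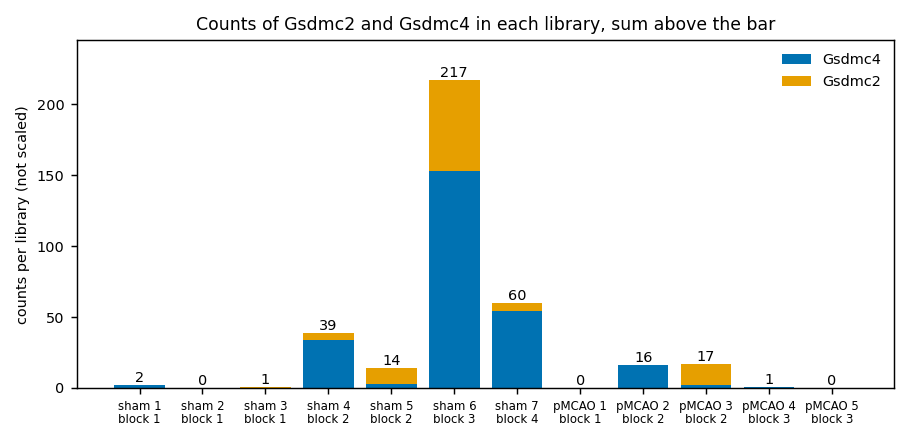
Counts of Gsdmc4 and Gsdmc2 in each library, stacked and not scaled, with the sum above each bar and the block of library numbers below it. Sham sample 6 holds 217 of the counts, and the 4 libraries of block 1 hold at most 2 each.

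The share of Gsdmc4 in the summed counts of both genes could be formed in 9 libraries. In those with 10 or more summed counts it was 87.2% (exact 95% binomial interval 72.6% to 95.7%), 21.4% (4.66% to 50.8%), 70.5% (63.96% to 76.5%) and 90.0% (79.5% to 96.2%) in sham samples 4 to 7. In pMCAO samples 2 and 3 it was 100% (79.4% to 100%) and 11.8% (1.46% to 36.4%). The intervals cover counting error only. The share thus varied widely within each group. The mean shares of 61.5% ± 41.0 over 6 sham and 70.6% ± 50.9 over 3 pMCAO samples (± SD), which include 3 libraries with only 1 or 2 counts, did not differ beyond this spread (exact two-sided permutation test, p = 0.619). In libraries with 10 or more counts the difference of pMCAO from sham turned from 9.07 to -11.4 percentage points.

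Patterns over the libraries were compared after the mean of each library block was taken out of the log2 CPM, as descriptions over 12 libraries that share the group difference and depth. Block 4 holds a single library, which this step sets to 0 for every gene. The correlations therefore rest on the libraries of blocks 1 to 3. Among the 6 tested genes, Casp8 and Ripk3 ran most alike (Pearson r = 0.88). Mlkl had r = 0.55 with Casp8 and 0.44 with Ripk3, and the lowest pair was Gsdmd with Mlkl (r = -0.38). In pMCAO sample 1 Mlkl had only 5 counts (log2 CPM -0.92, against 1.70 to 2.61 in the block 1 sham samples), which weighs on all its correlations here. From sham sample 6 to pMCAO sample 5, both of block 3, Mlkl rose from 1.99 to 2.69. Casp8 fell from 7.12 to 6.95 and Ripk3 from 3.87 to 3.32. Correlations without pMCAO sample 1 were not computed. Of 14456 other genes, the most alike were Gm6382 (r = 0.94, Spearman rho = 0.97) and B4galnt1 (r = 0.94, rho = 0.94) for Casp1, and Fmo4 (r = 0.95, rho = 0.92) and Rnf123 (r = 0.93, rho = 0.82) for Casp6. For Casp8 they were Mtus2 (r = 0.98, rho = 0.92) and 4930581F22Rik (r = 0.95, rho = 0.73), and for Gsdmd they were Atxn1l (r = 0.94, rho = 0.92) and Stil (r = 0.94, rho = 0.95). For Mlkl they were Ndor1 (r = 0.96, rho = 0.82) and Mgam2-ps (r = 0.95, rho = 0.73), and for Ripk3 they were Letm2 (r = 0.97, rho = 0.98) and Uba7 (r = 0.93, rho = 0.94). These were the largest of all 14456 correlations computed for each gene.

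The wider pathway lists held 85 genes beside the 8 described above, of which 69 were in the table and 67 were tested. None was called for the group alone or with library blocks by limma-voom (0 of 67), where 0.00% and 0.325% of all genes were. For the group alone 3 had an unadjusted p under 0.05 and were higher in pMCAO (4.66% of all genes), and 5 were lower (3.77% of all genes). With library blocks 6 were higher (6.58% of all genes) and 7 lower (6.17% of all genes). The median log2 fold change of the 67 was -0.04 against 0.06 over all genes tested, and -0.03 against 0.01 with library blocks. With the genes described above counted in, the median of the 6 caspases was 0.19 (0.02 with library blocks), that of the 3 tested gasdermins 0.07, and that of the 17 necroptosis genes -0.18 (-0.15 with library blocks).

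The necroptosis list held 15 genes beside Ripk3 and Mlkl, and 1 of the 15 had an unadjusted p under 0.05 for the group alone (8.43% of all genes), and 2 with library blocks (12.7% of all genes). Tnfaip3, which encodes the ubiquitin-editing enzyme A20, averaged 66.1 ± 25.9 CPM across 7 sham and 37.9 ± 6.33 CPM across 5 pMCAO samples (± SD), with a limma-voom log2 fold change of -0.67 (SE 0.25, adjusted p 0.508), -0.45 with library blocks (adjusted p 0.309) and -0.36 without library block 1. Rnf31, a subunit of the linear ubiquitin ligase, came under 0.05 in the fit with library blocks but not for the group alone (log2 fold change -0.44, unadjusted p 0.0308 by limma-voom, adjusted p 0.331; -0.29 for the group alone and -0.01 without library block 1), and its exons overlap Irf9 on the same strand. Ripk1, the kinase upstream of Ripk3, had a log2 fold change of -0.04.

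Of 20 inflammasome genes 15 were tested, and their median log2 fold change was -0.03. In each fit 2 of the 15 had an unadjusted p under 0.05 by limma-voom, both lower in pMCAO samples. Over all genes 3.77% did so for the group alone and 6.17% with library blocks. Nlrc4, the adaptor of the NAIP-NLRC4 inflammasome that activates caspase-1, averaged 227 ± 76.0 CPM across 7 sham and 137 ± 43.6 CPM across 5 pMCAO samples (± SD), opposite in sign to Casp1. The limma-voom estimate was -0.70 on the log2 scale (SE 0.25, adjusted p 0.491), or -0.62 with library blocks (SE 0.14, unadjusted p 0.000319, adjusted p 0.0557), with negative differences of -0.44, -0.86 and -0.45 within blocks 1, 2 and 3. Under each of the 23 alternatives the unadjusted p of Nlrc4 was below 0.05. The limma-voom, edgeR or DESeq2 adjusted p ranged from 0.00742 to 0.813, and the fold change stayed under the size for a call. Il1rn, which encodes the interleukin-1 receptor antagonist, is also in the study's own list from this experiment, as lower after stroke. The study corrected for collection day and gives more pMCAO samples than the 5 analysed here, so its list and the values here differ in model and samples. Here Il1rn ranged from 0.242 to 2.49 CPM in sham and from 0 to 0.0853 CPM in pMCAO samples, with an adjusted p of 0.140 by limma-voom (0.0599 with library blocks). All its pMCAO values lay below 0.094 CPM, the lowest floor of 3 counts. Il1rn passed the filter on low counts through its sham values alone.

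**Figure D5:**
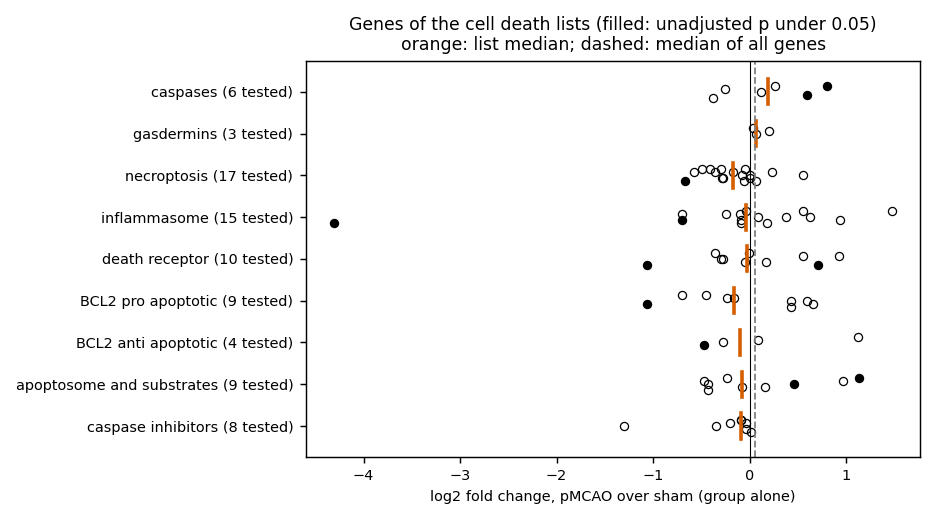
Log2 fold change of pMCAO over sham (limma-voom, group alone) for the tested genes of each cell death list, 1 point per gene, with filled points for an unadjusted p under 0.05 and the list median in orange. The medians lie between -0.18 and 0.19, beside the dashed median of all genes at 0.06, and the leftmost point is Il1rn.

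At the death receptor, 10 of 11 genes were tested. In each fit 1 of the 10 was higher and 1 lower in pMCAO samples with an unadjusted p under 0.05 by limma-voom. Over all genes the shares higher and lower were 4.66% and 3.77% for the group alone, and 6.58% and 6.17% with library blocks. Tnfsf10, which encodes the death ligand TRAIL, averaged 15.1 ± 5.23 CPM across 7 sham and 26.2 ± 11.0 CPM across 5 pMCAO samples (± SD) (limma-voom log2 fold change 0.71, SE 0.28, adjusted p 0.513; with library blocks 0.66, adjusted p 0.226). Bid, the BH3 protein that caspase-8 cleaves to reach the mitochondrion, averaged 8.33 ± 2.40 CPM across 7 sham and 3.71 ± 1.73 CPM across 5 pMCAO samples (± SD), for which limma-voom gave -1.07 on the log2 scale (SE 0.35, adjusted p 0.426; with library blocks -1.10, adjusted p 0.213). Its exons overlap Bcl2l13 on the opposite strand, and whether counting used strand is not given in the sources used here.

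Bid was 1 of 9 tested pro-apoptotic BCL2 genes. At an unadjusted p under 0.05 by limma-voom, 1 of the 9 was lower for the group alone (3.77% of all genes) and 0 were higher (4.66%). With library blocks 3 of the 9 were higher (6.58% of all genes) and 1 lower (6.17%). Bok, Pmaip1 (NOXA) and Bcl2l11 (BIM), of the same list, had an unadjusted p under 0.05 in the fit with library blocks but not for the group alone, with values higher in pMCAO and so opposite in sign to Bid. Their log2 fold changes with library blocks were 0.78, 0.69 and 0.74 (limma-voom adjusted p 0.295, 0.331 and 0.377), and 0.43, 0.60 and 0.66 for the group alone. For the group alone, Bok was at 0.08 without pMCAO sample 1 and 0.17 without sham sample 6, and Pmaip1 at 0.37 without sham sample 4. Of the 4 tested anti-apoptotic genes, 1 was lower at an unadjusted p under 0.05 by limma-voom for the group alone (3.77% of all genes). With library blocks 1 was higher and 1 lower (6.58% and 6.17% of all genes). Mcl1 had a log2 fold change of -0.47 (SE 0.22, limma-voom adjusted p 0.589), or -0.37 with library blocks (adjusted p 0.316). Bcl2 had one of 0.87 with library blocks (limma-voom adjusted p 0.346) and 1.12 for the group alone, which was 0.38 without sham sample 6 and turned in sign under edgeR and DESeq2.

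Of 9 apoptosome genes and substrates, 2 were higher at an unadjusted p under 0.05 by limma-voom for the group alone (4.66% of all genes). With library blocks 1 was higher at that p (6.58% of all genes). Dffb, the caspase-activated nuclease, had a group-alone log2 fold change of 1.13 (SE 0.50, limma-voom adjusted p 0.571) and Aifm1 one of 0.46 (SE 0.22, limma-voom adjusted p 0.592). With library blocks neither kept an unadjusted p under 0.05 by limma-voom (Dffb 0.87, p 0.102, and Aifm1 0.35, p 0.0932), and Aifm1 was at 0.27 without library block 1. Parp1 came under an unadjusted 0.05 in the fit with library blocks but not for the group alone (0.91, limma-voom adjusted p 0.330), and was at 0.96 for the group alone, or 0.61 and 0.59 without sham sample 1 and pMCAO sample 2. With library blocks Parp1 was at only 0.34 by edgeR (unadjusted p 0.547) and 0.31 by DESeq2 (unadjusted p 0.543). Its sign differed between blocks, with log2 differences of -1.08, 0.76 and 0.96 within blocks 1, 2 and 3. Of the 8 caspase inhibitors, 0 had an unadjusted p under 0.05 by limma-voom for the group alone. With library blocks 1 did, lower in pMCAO samples (6.17% of all genes). This was Serpinb9, the inhibitor of granzyme B, with -1.32 (limma-voom adjusted p 0.319). It was at -1.30 for the group alone, or -0.68 without pMCAO sample 4.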

How the data were processed

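RNA-seq counts of 12 samples were analysed. According to the methods and labels, the authors aligned paired-end reads to GRCm38 with STAR, counted them per gene with featureCounts (strand setting not given in the sources used here) and deposited unnormalised counts; 0 sample columns were left unmatched. The deposited table also holds the authors' CPM values, fold changes, p-values and FDR, which were not used. The collection day that the methods correct for is not in the labels. Genes were kept with edgeR's filterByExpr (minimum count 10), which left 14462 of 15855, and the groups compared by limma-voom in R 4.3.3 (edgeR 4.0.16, limma 3.58.1; DESeq2 1.42.0 as an alternative) on TMM-scaled counts. Total counts set a floor of 3 counts at 0.094 to 0.404 CPM. Exon lengths, the union of all annotated exons of each gene, came from GENCODE vM21. The fits were tested on simulated data, where the fit with library blocks made more false calls than its threshold allows. The members, lists, library blocks and tests were chosen with earlier results of these data known. Genes named are the 8 members, listed pathway genes with an unadjusted p under 0.05 in either fit, caspases and gasdermins by level, and the 2 genes most alike to each member. The share test was planned over all 12 samples but used the 9 with a count. The exact tests of Gsdmc2 and Gsdmc4 and the block versions of edgeR and DESeq2 were added after seeing the data. Some genes of the families are not reported here, and the lists were counted without them.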

Additional observations from a re-analysis of the deposited data

Results flagged for a closer look

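In 20 groups of 7 sham or 5 pMCAO values (8 genes and 2 summed marker lists), 6 held 1 library far from the others. About 1 in 20 was reckoned for chance, but that rate need not hold here. Gsdmc2 and Gsdmc4 lay at or near 0 in most libraries, so that a library with counts readily stands apart. No excess over chance is read from the 6. Gsdmc2 stood at 1.64 CPM in sham sample 6 against 0 to 0.637 CPM in the other sham samples, and at 0.346 CPM in pMCAO sample 3 against 0 in the others. Gsdmc4 reached 0.374 CPM in pMCAO sample 2 against 0 to 0.0801 CPM in the others of its group. Summed lymphocyte markers reached 813 CPM in sham sample 7 against 51.6 to 349 CPM in the other sham samples, and summed myeloid markers 77.4 CPM against 14.7 to 41.4 CPM. In pMCAO sample 2 the summed myeloid markers were 41.1 CPM against 18.4 to 24.4 CPM in the rest of the group. The Casp1 level was the highest of all libraries in pMCAO sample 2, and without that library its log2 fold change was 0.71 (limma-voom, unadjusted p 0.00683, adjusted p 0.492).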

How the results depend on the processing

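Under the 23 alternatives none of the genes studied was called, counting all 8 genes without the filter on low counts and the 6 tested genes otherwise. Over all genes, against 0 called for the group alone, 47 were called with library blocks, 68 with DESeq2, 21 and 115 with edgeR and DESeq2 with library blocks, 243 with the replicate block and 18 with sample quality weights. Leaving out each sample in turn gave 0 to 17 genes, the 17 without pMCAO replicate 3, 8 without pMCAO replicate 1 and 5 without sham replicate 7. With library blocks this range was 4 to 86. The cause was not tested. Of 138 log2 fold changes of the 6 tested genes, 130 kept their direction. Mlkl, at -0.08, turned to 0.0077 with edgeR, 0.19 with library blocks, 0.25 with the replicate block, 0.24 with quality weights, 0.27 without library block 1, 0.01 without sham replicate 7 and 0.25 without pMCAO replicate 1, and leaving out each sample gave -0.31 to 0.25. Gsdmd turned to -0.091 with the replicate block, and Bcl2 to -0.10 with edgeR and -0.11 with DESeq2. Il1rn had a fold change in 17 of the 23 alternatives, with pMCAO values under the floor of 3 counts. It was called with the replicate block (-4.02) and by DESeq2 with library blocks (-4.78). The difference in the Gsdmc4 share, 9.07 points, was -11.4 in libraries with 10 or more counts, and -5.64 to 38.5 leaving out each sample, turning to -3.24 without sham replicate 3 and -5.64 without pMCAO replicate 2 or 4. Replicate numbers were not taken as a pairing, since the labels state none. Of 5 correlations of deviations 2 exceeded 0.1, and 1 pMCAO sample was most like its own number. So few correlations cannot settle whether the numbers pair samples. With the replicate block Casp1 had a log2 fold change of 0.91 (limma-voom adjusted p 0.0448), still under the size for a call, and the paired Gsdmc4 share differed by 12.3 points. Gsdmc2 and Gsdmc4 gave no fold change with the filter. Depth limits the lowest genes, Gsdmc2, Gsdmc4 and Mlkl.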
